A study of Mus musculus with 15 samples.

Results

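The cells described here were picked from single-cell RNA-seq of mouse testis by a gate of detected transcripts that was meant to hold differentiating spermatogonia. A kept cell had at least 500 genes, at least 1000 unique molecular identifiers (UMIs, each counting 1 captured RNA molecule) and fewer than 30% of its UMIs on mitochondrially encoded genes. A gated cell also had at least 2 of Stra8, Kit, Dmrtb1, Sohlh1, Sohlh2, Dmrt1 and Uchl1 detected and fewer than 2 of Gfra1, Zbtb16, Sall4, Etv5, Id4, Lin28a and Nanos3, which mark undifferentiated spermatogonia. It had no UMI on Piwil1 or Acrv1, which mark later spermatocytes and spermatids, and at most 1 UMI summed over the Sertoli cell genes Wt1, Sox9 and Rhox8. The gate held 2369 of 76494 kept cells.

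The study asked how spermatogenesis changes under JQ1, a small molecule that competes for the bromodomains of the BET proteins, and after the drug is withdrawn. All mice were DBA/2J males. Group T received JQ1 at 50 mg/kg daily by intraperitoneal injection for 3 wk, and testes were taken at the end of dosing at 10 wk of age. Group R received the same course, and testes were taken 6 wk after withdrawal at 16 wk of age. Vehicle groups VC-T (10 wk of age) and VC-R (16 wk of age) received DMSO diluted in (2-hydroxypropyl)-β-cyclodextrin solution, and group UC was untreated and 15 wk of age. Each group had 3 libraries, each library came from 1 testis of 1 mouse, nothing was pooled, and all samples were handled and sequenced together. T and UC therefore differ in age and in the injections of vehicle as well as in drug, and these cannot be told apart in that comparison. The same holds for R and UC, which differ in the injections and slightly in age.

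Total UMIs per library ranged from 9673587 to 98724982, and the sums over the gated cells ranged from 128238 to 3503921 UMIs. Libraries shared between 0 and 31 kept barcodes per pair, at most 0.549% of the smaller library. VC-T 1 stood apart from its group. Among its kept cells, 0.0688% had more than 5% of their UMIs on 15 late haploid genes, against 46.5% in VC-T 2 and 56.8% in VC-T 3, while the 3 T libraries were at 0.100% to 0.817%. The study left VC-T 1 out of its tests of expression, and it was left out of the tests here too, with values including it given where they changed a call. Whether this library was mixed up with another cannot be told from the files.

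Differentiating spermatogonia arise when undifferentiated spermatogonia respond to retinoic acid, begin to express the receptor tyrosine kinase KIT, and pass through a series of mitotic divisions before meiosis. STRA8 is induced by retinoic acid and is needed for entry into meiosis, while SOHLH1, SOHLH2, DMRT1 and DMRTB1 are transcription factors that set the timing of spermatogonial differentiation and the switch from mitosis to meiosis. These cells sit at the base of the seminiferous tubule and divide, whereas the haploid spermatids that follow repackage their DNA with transition proteins and protamines.

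The gated cells only in part met their label. Of the 2369 cells, 22.6% had a UMI on Stra8, 19.5% on Kit, 20.1% on Sohlh1, 6.84% on Sohlh2, 26.4% on Dmrt1, 69.7% on Dmrtb1 and 75.5% on Uchl1, a neuronal ubiquitin hydrolase found in spermatogonia. The rule chose the cells by these genes, so the shares describe the choice and were not tested. In 22146 cells with at least 3 spermatid markers, which should lack the spermatogonial genes, the shares were 0.470% for Stra8, 2.11% for Kit, 1.58% for Sohlh1, 0.894% for Sohlh2, 1.16% for Dmrt1 and 7.45% for Uchl1. For Dmrtb1 the share in those cells was 73.6%, above its share in the gate, and in 341 macrophages it was 35.2%, so a UMI on Dmrtb1 did not set the gated cells apart. Median UMIs per cell across libraries ranged from 1513 to 6487 in the gate, from 2155 to 7545 in the spermatid cells and from 1101 to 13777 in the macrophages.

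The commonest way into the gate was a UMI on Dmrtb1 and on Uchl1 and on none of the other 5 genes, which held for 950 cells (40.1%). Dazl, a germ cell RNA-binding protein that the rule did not use, had a UMI in 38.6% of the gated cells and in 5.93% of the spermatid cells. Its share was 39.7% in a gate of undifferentiated spermatogonia and 65.9% in a gate of leptotene and zygotene spermatocytes. Ddx4, another germ cell gene outside the rule, had a UMI in 38.8% of the gated cells and in 57.7% of the spermatid cells.

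A large share of the gated cells carried RNA of late haploid cells. The 15 genes counted as late haploid include the protamines Prm1 and Prm2, the transition proteins Tnp1 and Tnp2 and the sperm tail genes Odf1, Odf2 and Akap4. Of the gated cells, 1241 had at most 2% of their UMIs on these genes, 835 had at least 10%, and 293 lay between, so that most cells lay well to either side of a limit of 5%. In all, 951 cells were over 5% and 1418 were not.

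The cells over 5% were unevenly spread over the groups. T held 0 of 468, which allows a share of up to 0.641% (3 cells). That bound pools the cells of the 3 T libraries and holds counting error only. R held 593 of 841, VC-T 115 of 496, VC-R 112 of 260 and UC 131 of 304. By library they made up 0%, 0% and 0% of the gated cells in T, 0%, 36.2% and 21.9% in VC-T, 74.7%, 70.2% and 68.8% in R, 57.8%, 37.0% and 31.4% in VC-R and 61.4%, 39.1% and 36.6% in UC. Each R library was above every other library, each T library was at 0, and VC-T 1 lay with T. Among all kept cells the same share was 0.100% to 0.817% in T, 52.9% to 61.1% in R and 61.7% to 71.1% in UC.

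**Figure D1:**
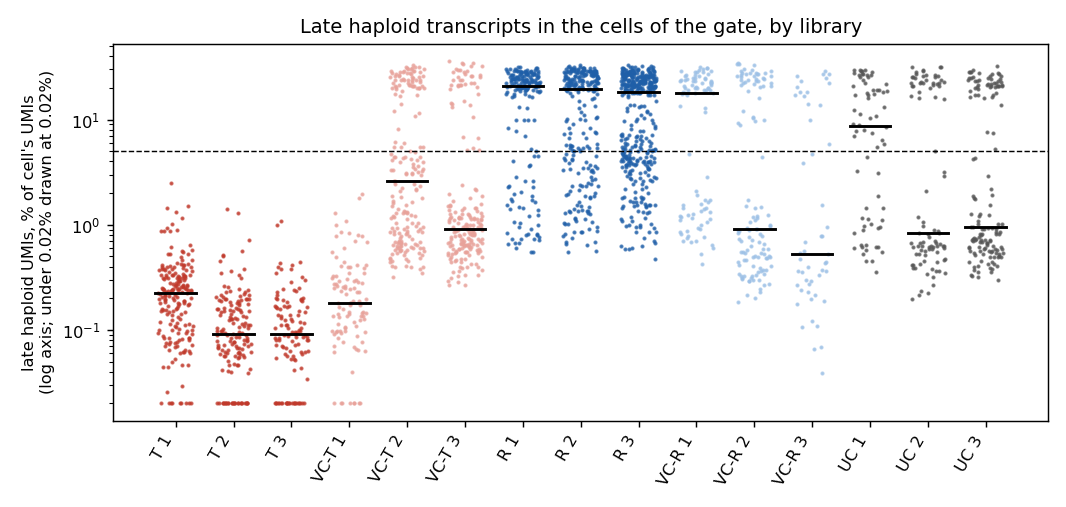
Percent of each gated cell's UMIs on the 15 late haploid genes (log axis, values under 0.02% drawn at 0.02%), with 1 point per cell and 1 column per library, a bar at the library's median and a dashed line at 5%. The R, VC-R and UC libraries and VC-T 2 and VC-T 3 have a cloud of cells well above the line, and the T libraries and VC-T 1 have none.

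The cells over and under the limit differed in the genes of the rule. Over 5%, Stra8 was detected in 3.47% of the cells, Kit in 9.15%, Dmrt1 in 4.73% and Dmrtb1 in 94.2%, and 634 cells (66.7%) held Dmrtb1 and Uchl1 alone. Under it, Stra8 was detected in 35.5%, Kit in 26.4%, Dmrt1 in 41.0% and Dmrtb1 in 53.3%, and 316 cells (22.3%) held Dmrtb1 and Uchl1 alone. The source of the late haploid RNA in these cells was not tested. A UMI on Prm1 was also found in 100% of the 341 macrophages, at 862 to 43369 CPM by library. Because of this mixture the cells are called gated cells below, and each comparison is given again for the cells with at least 3 of the 7 genes detected.

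Those with at least 3 of the 7 genes numbered 600, of which 355 had exactly 3 genes and 245 had 4 or more. Cells with exactly 2 genes, just inside the gate, numbered 1769, and kept cells that met every other criterion with 1 gene, just outside it, numbered 15676. Late haploid cells made up 52.9% of the cells with 1 gene, 50.1% with 2, 16.3% with 3 and 2.86% with 4 or more. By group the share went from 74.5% with 1 gene to 53.2% with 2 in UC and from 67.9% to 53.6% in VC-R, but from 67.5% to 75.5% in R. In VC-T, with VC-T 1 pooled in, it went from 33.2% to 33.6%. It went from 54.9% to 50.8% in VC-T 2 and from 61.1% to 34.9% in VC-T 3.

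Several transcripts that the rule did not use rose in the same steps. Dazl was at 31.4 CPM (a gene's UMIs per 1000000 UMIs of the summed cells) with 1 gene detected, 142 with 2, 492 with 3 and 749 with 4 or more. Mki67, a proliferation marker, was at 8.72, 34.2, 131 and 264 CPM, and Hells, a chromatin remodeller of dividing germ cells, at 18.3, 89.2, 382 and 688 CPM. Crabp1, a cellular retinoic acid-binding protein, was at 3.10, 26.8, 138 and 276 CPM, and the X-linked germ cell homeobox gene Rhox13 at 3.08, 20.2, 61.3 and 112 CPM. Ddx4, also outside the rule, did not rise at each step, with 169, 114, 178 and 265 CPM. Prm1 rose from 48792 CPM with 1 gene to 53509 with 2, and was lower at 29126 with 3 and 5098 with 4 or more. Ldhc, the lactate dehydrogenase of meiotic and later germ cells, was at 4136, 3246, 2334 and 688 CPM.

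**Figure D2:**
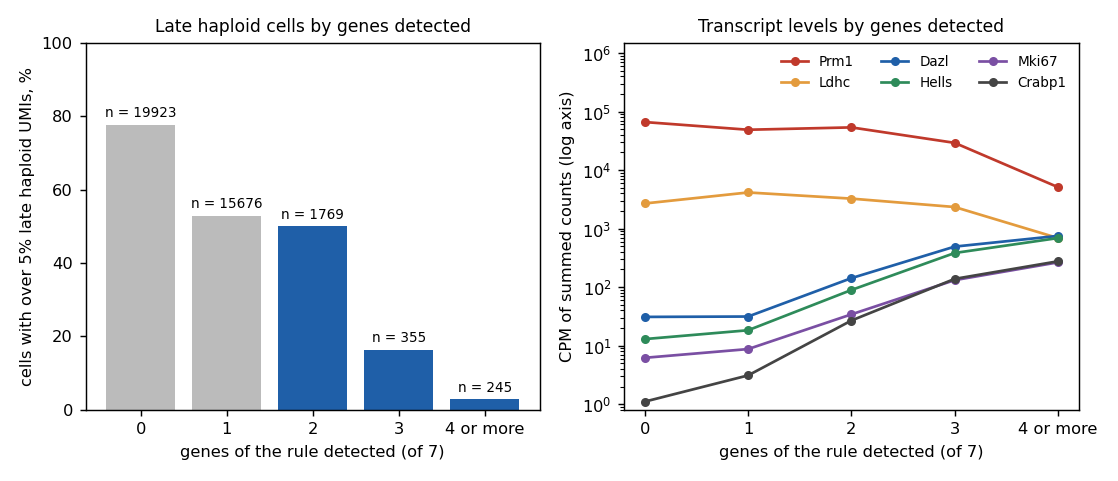
Left, percent of cells over 5% late haploid UMIs by how many of the 7 genes of the rule were detected, with the number of cells above each bar (grey, outside the gate; blue, inside it). Right, CPM of 6 genes in the summed cells of each step on a log axis: Dazl, Hells, Mki67 and Crabp1 are highest and Prm1 and Ldhc lowest at 4 or more genes.

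Cells over 5% late haploid UMIs were also unevenly spread among the cells with exactly 3 genes. They made up 55.9% of such cells in R, 22.0% in VC-R, 13.9% in UC, 9.82% in VC-T and 0% in T. With 4 or more genes the shares were 4.65% in R, 8.11% in UC, 2.5% in VC-T, 0% in VC-R and 0% in T. The VC-T shares include VC-T 1, which was at 0% in both.

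Of the 600 cells with 3 or more genes detected, 57.2% had a UMI on Stra8, 42.7% on Kit, 43.8% on Sohlh1, 64.8% on Dmrt1 and 73.5% on Dazl. Every one of these shares was far above that in the spermatid cells, as were those of Sohlh2 (14.2%) and Uchl1 (87.7%). Dmrtb1 went the other way, with 73.6% of the spermatid cells against 50.3% of the 600 cells. So did the germ cell gene Ddx4, which the rule did not use, with 57.7% against 51.7%. In these cells Stra8 ranged from 480 to 585 CPM in T, from 155 to 349 in R and from 504 to 690 in UC, and in all gated cells from 235 to 298 CPM in T, from 25.7 to 48.6 in R and from 147 to 217 in UC. Kit, the receptor, was at 169, 250 and 222 CPM in T, 114, 98.4 and 38.2 in R and 153, 191 and 183 in UC in the cells with 3 or more genes. In these cells R lay below UC without overlap for Stra8 and Kit, and T overlapped UC for both. T lay above UC without overlap for Dmrt1 (389 to 491 against 184 to 305 CPM) and Sohlh1 (267 to 296 against 92.0 to 165). Dmrtb1 did so too (241 to 382 against 114 to 230 CPM), while Sohlh2 and Uchl1 overlapped. In all gated cells Stra8 lay higher in T than in UC. These are descriptions of genes the rule itself used.

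The gated cells were counted in each library. T held 196, 157 and 115, VC-T 101, 199 and 196, R 186, 255 and 400, VC-R 90, 119 and 51 and UC 70, 92 and 142. As a share of kept cells this was 3.36%, 3.93% and 4.48% in T, 1.74%, 5.25% and 5.32% in VC-T, 2.65%, 3.30% and 2.97% in R, 1.78%, 3.14% and 1.75% in VC-R and 2.13%, 2.97% and 3.19% in UC. T lay above UC and inside the range of VC-T, and R overlapped its controls.

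Shares and cell sizes were compared over libraries by exact two-sided permutation tests, T against UC and VC-T without VC-T 1 and R against UC and VC-R, with Benjamini-Hochberg adjustment over 8 tests. The smallest p these designs allow is 0.0357 for T and 0.0238 for R. The share of kept cells averaged 3.92% in T (SD 0.561, n = 3) and 3.77% in its controls (SD 1.43, n = 5, exact permutation p = 0.893, adjusted p = 0.893). For R the average was 2.97% (SD 0.327, n = 3), with 2.5% in its controls (SD 0.683, n = 6, exact permutation p = 0.357, adjusted p = 0.408). No difference larger than the spread between libraries was found. The denominator of the share counts cells over 5% late haploid UMIs, of which T libraries held few. The size of the share therefore depends on them as well as on the gated cells.

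The gated cells were also counted against the cells of the gates meant for early germ cells, called the early gates. The denominator here held the gated cells, 383 cells in a gate of undifferentiated spermatogonia and 722 in a gate of leptotene and zygotene spermatocytes. It therefore still held the gated cells over 5% late haploid UMIs. The share was 71.0%, 68.6% and 73.7% in T, 62.8% and 67.4% in VC-T 2 and VC-T 3, 73.2%, 76.8% and 73.4% in R, 57.0%, 68.8% and 56.0% in VC-R, and 63.6%, 67.6% and 57.3% in UC. Every T and every R library lay above its controls. T exceeded them by 7.36 percentage points (exact permutation p = 0.0357, adjusted p = 0.0476) and R by 12.8 (exact permutation p = 0.0238, adjusted p = 0.0476). Once 3 or more genes were required, T was higher by 12.1 points (exact permutation p = 0.107) and R lower by 2.19 (46.9% against 34.8% and 26.7% against 28.9%, exact permutation p = 0.738 for R), so neither call held in those cells. Without the members over 5% late haploid UMIs, a choice made after seeing the data and given with no test, the share was 40.9%, 49.7% and 46.3% in R, 35.8%, 58.1% and 46.7% in VC-R and 40.3%, 56.0% and 45.9% in UC, so R overlapped its controls. Cells with at least 2000 UMIs were also thinned to 2000 before gating, and shallower cells were left out. T was then lower by 2.70 points (exact permutation p = 0.536) and R lower by 0.604 (exact permutation p = 0.833). The T libraries then held 78, 78 and 29 gated cells, so these values cover a different set, drawn from the deeper cells.

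Gated cells of T held fewer UMIs than those of their controls and gated cells of R more. Median UMIs per gated cell were 1701, 1756 and 1513 in T, 5059 and 2330 in VC-T 2 and VC-T 3, 5568, 4605 and 6487 in R, 3410, 3847 and 1727 in VC-R and 2981, 2993 and 3088 in UC. T averaged 1657 (SD 127, n = 3) and its controls 3290 (SD 1034, n = 5, exact permutation p = 0.0357, adjusted p = 0.0476), and R averaged 5553 (SD 941, n = 3) and its controls 3008 (SD 709, n = 6, exact permutation p = 0.0238, adjusted p = 0.0476). VC-T 1 was at 1576, inside the range of T, and with it among the controls the exact permutation p for T was 0.0714. The same order held in the cells with 3 or more genes, where every T library was again below and every R library above its controls. Without the members over 5% late haploid UMIs, again with no test, R was at 3268, 2503 and 2398, VC-R at 2290.5, 2930 and 1600 and UC at 2163, 2351 and 2522.5, and R overlapped its controls.

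At an equal 2000 UMIs per cell, gated cells of T expressed more genes than their controls and gated cells of R fewer. The mean number of genes was 1381, 1382 and 1377 in T, 1192 and 1216 in VC-T 2 and VC-T 3, 992, 1018 and 999 in R, 1103, 1167 and 1144 in VC-R and 1126, 1151 and 1180 in UC. T was higher by 207 genes (1380 ± 2.65 against 1173 ± 35.2, exact permutation p = 0.0357, adjusted p = 0.0476) and R lower by 142 (1003 ± 13.4 against 1145 ± 27.9, exact permutation p = 0.0238, adjusted p = 0.0476). With 3 or more genes of the rule the difference was 85.7 genes in T (exact permutation p = 0.0357) and -33.0 in R (exact permutation p = 0.5). The T libraries were then at 1417, 1431 and 1412 genes, resting on 25, 18 and 10 cells. VC-T 1, not in the test, was at 1442 on 6 cells, above every T library, so the separation of T depended on leaving it out. The late haploid share of UMIs moved with these values, from 0.133% to 0.274% of all UMIs of the gated cells in T and 11.5% to 12.1% in UC to 20.3% to 20.8% in R. Without the members over 5%, with no test, R was at 1397, 1369 and 1340 genes, VC-R at 1370, 1341 and 1357 and UC at 1340, 1368 and 1361, so R no longer lay below its controls. T was then at 1381, 1382 and 1377, against 1370 and 1303 in VC-T 2 and VC-T 3, a smaller gap.

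**Figure D3:**
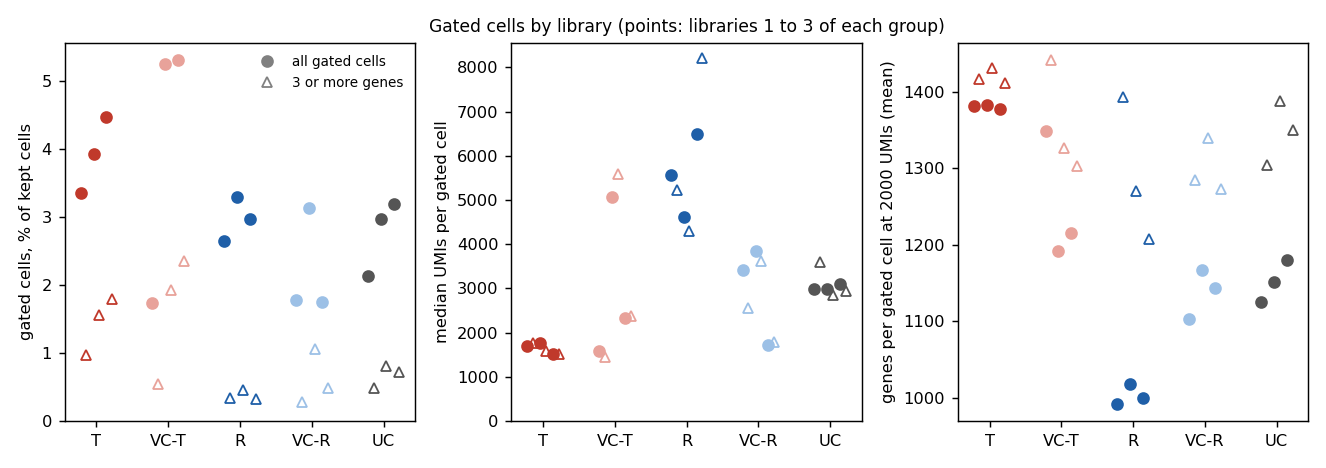
Gated cells as percent of kept cells (left), median UMIs per gated cell (middle) and mean genes per gated cell at 2000 UMIs (right), with 1 point per library. Filled circles are all gated cells and open triangles the cells with 3 or more of the 7 genes: in the right panel the circles of R lie lowest and those of T highest, and the triangles of R span the range of the controls.

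Mitochondrially encoded RNA was a small part of the gated cells. Its median share of UMIs per cell was 3.34%, 3.86% and 3.43% in T, 3.03%, 2.74% and 3.43% in VC-T, 0.143%, 0.270% and 0.233% in R, 0.569%, 3.40% and 2.51% in VC-R and 0.282%, 2.24% and 2.07% in UC. R and the libraries VC-R 1 and UC 1, which had the most late haploid cells, were lowest. Medians in the cells with 3 or more genes lay between 2.01% and 4.19%.

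The gated cells were compared with the other kept cells of the same library. This is a description with no test, since cells chosen by transcripts differ in others. Of 408 genes at 50 CPM or more and higher in the gate in all 15 libraries, the largest median ratios were those of the replication-dependent histone Hist1h2ap (274 CPM in the gate against 7.58 in the other cells, log2 ratio 5.01), Auts2, a chromatin regulator of the nervous system (494 against 17.9 CPM, log2 ratio 5.01), and Crabp1 (108 against 2.29 CPM, log2 ratio 5.00). The histone gene Hist1h1a (201 against 6.81 CPM) had a log2 ratio of 4.74. Histone genes of these clusters are near-identical copies, so reads may be split among them and their counts are uncertain.

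The next were Hnf4aos (log2 ratio 4.73), the centromeric histone Cenpa (4.62), the ribosomal protein gene Rpl36a (4.38), the MYC target Cdca7 (4.30) and the pro-apoptotic gene Bax (4.25). Bclaf3, Zrsr2, Map7d2, Ehmt1, Tex13b and Taf1 completed the 15, with log2 ratios from 4.12 to 4.32. In the cells with 3 or more genes the leading ratios were larger, Crabp1 at 239 CPM (log2 ratio 6.21) and Auts2 at 1093 CPM (log2 ratio 5.96), and the replication gene Mcm2 (log2 ratio 5.26) and the germ cell RNA-binding gene Elavl2 (log2 ratio 5.25) were among the 15.

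The gated cells were set beside the gates of their developmental neighbours. Compared with the gate of undifferentiated spermatogonia, 8 genes met the limits for higher, led by the testis histones Hist1h2ba (log2 ratio 4.28) and Hist1h2aa (255 against 44.5 CPM, log2 ratio 2.55). Of 9 genes lower in every library, Kcnc2, a potassium channel, was at 7.59 against 119 CPM (log2 ratio -4.01), and Hs3st1 and Aff3 had log2 ratios of -2.62 and -2.56. In the cells with 3 or more genes Mki67 was at 226 CPM against 40.8 in the undifferentiated gate (log2 ratio 2.67). That gate held RNA of later germ cells too. Prm1 had a UMI in 80.7% of its 383 cells, at 13.8 to 64920 CPM by library. In the cells with 3 or more genes the share was 73.5%, at 51.6 to 50460 CPM. Fabp9, a gene of late germ cells, was at 3362 CPM in the undifferentiated gate against 1378 (log2 ratio -1.68). The part of such RNA in these ratios was not tested.

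Compared with the gate of leptotene and zygotene spermatocytes, 439 genes were higher and 718 lower in every library. Crabp1 was at 108 against 4.44 CPM (log2 ratio 4.45), and the cell cycle gene Ccnd1 (log2 ratio 3.72) and the glutathione reductase Gsr (log2 ratio 6.12) were also higher. Sycp3, a protein of the synaptonemal complex that pairs meiotic chromosomes, was at 166 against 1342 CPM (log2 ratio -3.12), and the germ cell surface gene Tex101 at 135 against 882 CPM (log2 ratio -2.95). Gml and Gml2 were lower too, with log2 ratios of -3.97 and -4.10.

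Markers of other cell types were looked up in every library. The 15 Sertoli genes summed to 0.00171% to 0.0136% of UMIs in T, 0.0355% to 0.0528% in R, 0.0293% to 0.0424% in UC and 0.00234% to 0.0738% in VC-R. The 8 macrophage genes summed to at most 0.00502% and the 6 endothelial genes to at most 0.00779% in any library. The 16 spermatocyte genes made up 0.541% to 0.693% in T, 0.478% to 0.480% in R and 0.471% to 0.673% in UC, and the 12 spermatid genes 0.0531% to 0.105%, 0.229% to 0.251% and 0.141% to 0.188%. The spermatid list thus moved with the late haploid list.

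Expression was compared on UMIs summed over the gated cells of each library with edgeR's quasi-likelihood test, and genes with an adjusted p under 0.05 whose log2 fold change was over 1 or under -1 were counted as changed. Fold changes are log2 with their SE. The comparison of T with UC asked what JQ1 changed at the end of dosing. Of 6565 genes tested, 175 were higher in T (2.67%) and 1028 lower (15.7%), 1203 in all (18.3%), and the median log2 fold change of all genes was 0.09. The lower genes were led by transcripts of late haploid cells, which had all but gone from the T libraries.

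Prm1, the protamine that replaces histones in sperm, was at 205, 31.3 and 50.4 CPM in T and 32437, 32712 and 28957 CPM in UC (-8.78 ± 0.44, adjusted p = 1.08e-12). Tnp2, a transition protein, was at 155, 54.1 and 91.6 CPM in T and 23107, 23595 and 23662 in UC (-8.37 ± 0.32, adjusted p = 9.27e-14). The groups were far apart, and VC-T 1, at 117 CPM of Prm1 and 184 of Tnp2, lay with T. Of the 15 late haploid genes 14 fell, with a median of -4.88, and of the 7 spermatid genes tested Spaca7, Tssk1 and Tssk2 fell while the acrosomal protease Acr rose. The 3 Sertoli genes tested, Cst12, Defb19 and Aard, fell as well, with a median of -2.74, and so did the lymphocyte marker Cd3d. The testis kinase gene Tssk6 (13.8, 8.54 and 13.7 CPM in T, 931, 874 and 882 in UC) and the haploid genes H2al2a, Cabs1, Dnajb8 and Ubl4b were among the 10 leading lower genes. Car2 was left with 1 UMI over the T libraries together.

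Fewer genes rose in T than fell. The urokinase receptor gene Plaur was at 39.2, 59.8 and 32.1 CPM in T and 0, 3.12 and 1.89 in UC (3.91 ± 0.61, adjusted p = 2.31e-05), and the scaffold gene Magi2 at 217, 194 and 234 CPM in T and 68.4, 40.6 and 54.7 in UC (1.44 ± 0.25, adjusted p = 0.0001). Against the vehicle libraries of the same age Plaur (2.5 ± 0.49, adjusted p = 0.00191) and Magi2 (2.40 ± 0.29, adjusted p = 4.52e-05) rose too. The other leading genes were Spag6l, Gm32828, Gm41335, 4930414F18Rik, Gm10457 and 3 mitochondrially encoded genes.

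Mitochondrially encoded genes moved together. Of 12 tested, all 12 had a positive log2 fold change (median 0.59) and mt-Nd4l, mt-Atp8 and mt-Nd3 passed the test. The complex I gene mt-Nd4l was at 316, 253 and 325 CPM in T and 34.2, 62.4 and 84.8 in UC (1.68 ± 0.25, adjusted p = 1.41e-05), with no overlap. Against VC-T 2 and VC-T 3, which were at 118 and 210 CPM, it did not pass (0.43 ± 0.27, adjusted p = 0.333). Of 12 mitochondrially encoded genes 0 changed in that comparison, with a median of 0.02.

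Few genes of the spermatogonial lists passed in T. Of 12 germ cell identity genes tested, Tdrd1, a tudor protein of the piRNA pathway, rose (83.1, 111 and 101 CPM in T, 26.6, 18.7 and 26.4 in UC, 1.47 ± 0.32, adjusted p = 0.00109) and none fell. Of 5 genes of undifferentiated spermatogonia outside the rule, the D-type cyclin Ccnd2 rose (39.2, 45.6 and 55.0 CPM in T, 3.80, 18.7 and 15.1 in UC, 1.20 ± 0.40, adjusted p = 0.0336). Both were also higher than in VC-T, Tdrd1 by 1.52 ± 0.32 (adjusted p = 0.00352) and Ccnd2 by 2.13 ± 0.46 (adjusted p = 0.00417). VC-T 1, which was not in the test, was at 85.2 CPM of Tdrd1, among the T libraries.

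In the retinoic acid pathway 0 of 5 tested genes changed, with a median of 0.33, and of the 4 BET bromodomain genes, which encode the proteins JQ1 binds, 0 changed, with a median of 0.49. Brd2 was at 205, 191 and 238 CPM in T and 106, 90.5 and 102 in UC (0.54 ± 0.22, adjusted p = 0.0922). On CPM it lay above UC without overlap, while its fold change, scaled by TMM, did not pass. Of 14 genes of KIT and growth factor signalling and 3 of the MYC family 0 passed, with medians of 0.33 and 0.30.

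Cell cycle genes were divided. Of 20 S phase genes the ribonucleotide reductase subunit Rrm1 rose (1.22 ± 0.30, adjusted p = 0.00321), the flap endonuclease Fen1 fell (-1.14 ± 0.31, adjusted p = 0.00905), and the median was -0.02. Of 24 genes of the G2 and M phases 0 passed, with 23 positive values and a median of 0.39. Among 19 genes of meiotic entry, Syce2, a synaptonemal complex protein, fell (238, 211 and 302 CPM in T, 388, 300 and 373 in UC, -1.06 ± 0.21, adjusted p = 0.000338).

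In the smaller lists some regulators changed. The de novo DNA methyltransferase Dnmt3b rose (50.8, 76.9 and 59.6 CPM in T, 11.4, 25.0 and 22.6 in UC, 1.06 ± 0.36, adjusted p = 0.0391) and the methyl-CpG reader Mbd2 fell (57.7, 54.1 and 59.6 CPM in T, 125, 137 and 109 in UC, -1.64 ± 0.26, adjusted p = 2.17e-05), of 7 DNA methylation genes tested. Against VC-T, Mbd2 fell again (-1.24 ± 0.29, adjusted p = 0.00651) and Dnmt3b did not differ (-0.12, adjusted p = 0.879). The elongation factor Ell2 fell by 1.52 ± 0.37 on the log2 scale (adjusted p = 0.00356), of 6 regulators of P-TEFb, and the pro-apoptotic gene Bcl2l11 fell by 1.18 ± 0.32 (adjusted p = 0.00739), of 7 cell death genes. Of 78 cytoplasmic ribosomal protein genes Rpl10l, a testis copy, rose and Rps20 fell, with a median of -0.07, and the spermatocyte gene Nme8 fell, of 14.

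In the cells with 3 or more genes detected the comparison of T with UC had 2244 genes and 9 changed, 1 higher and 8 lower (0.0446%, 0.357% and 0.401% in all), with a median of -0.01. There were 190 genes at an unadjusted p under 0.05, and DESeq2 called 13. Left out in turn, T 1 or T 2 gave 0, T 3 gave 2, UC 1 gave 23, UC 2 gave 115 and UC 3 gave 4, so the count rested on each library. The late haploid genes Prm1, Prm2, Tnp1, Tnp2, Smcp and Gapdhs, 6 of 8 tested, made up most of the lower genes, with 1700027A15Rik and the histone gene Hist1h2aa.

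Prm1 was at 195, 51.6 and 86.2 CPM in T and 19413, 1627 and 5243 in UC in these cells (-6.43 ± 0.87, adjusted p = 0.0075). Hist1h2aa, a testis variant of histone H2A, was at 195, 189 and 357 CPM in T and 859, 737 and 782 in UC (-1.79 ± 0.27, adjusted p = 0.0103), with no overlap. Against VC-T 2 and VC-T 3, at 719 and 435 CPM, it also fell (-1.40 ± 0.30, adjusted p = 0.0184), and VC-T 1 was at 161 CPM. In all gated cells the value was -0.99 ± 0.20 (adjusted p = 0.0005), just short of the fold threshold. The gene that rose was mt-Nd4l, at 398, 293 and 492 CPM in T and 123, 114 and 113 in UC (1.68 ± 0.29, adjusted p = 0.0235). Against VC-T 2 and VC-T 3, which averaged 227 CPM, it did not pass (0.70 ± 0.29, adjusted p = 0.348). Against UC all 12 mitochondrially encoded genes again had positive values, with a median of 0.45.

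No gene of the spermatogonial, meiotic or cell cycle lists passed in T in these cells. Dazl was at 507, 723 and 837 CPM in T and 583, 737 and 678 in UC (-0.03 ± 0.21, adjusted p = 0.982), and Crabp1 at 220, 361 and 406 against 245, 394 and 287 CPM (0.01 ± 0.27, adjusted p = 0.996). Hells was at 710, 637 and 542 against 598, 623 and 600 CPM (0.00 ± 0.20), and the nucleolar gene Npm1 differed by -0.01 ± 0.14. T and UC overlapped for each of these genes. Mki67 was at 152, 207 and 579 CPM in T and 153, 331 and 235 in UC (0.24 ± 0.43, adjusted p = 0.951), with T 3 far above the other libraries. The lists gave 0 of 8 germ cell identity genes (median 0.20), 0 of 9 S phase genes (median -0.33, all 9 negative), 0 of 15 G2 and M phase genes (0.12), 0 of 13 meiotic entry genes (-0.12), 0 of 3 BET genes (0.01) and 0 of 75 ribosomal protein genes (-0.06). These values rest on 57, 62 and 46 cells in the T libraries and 16, 25 and 32 in UC.

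**Figure D4:**
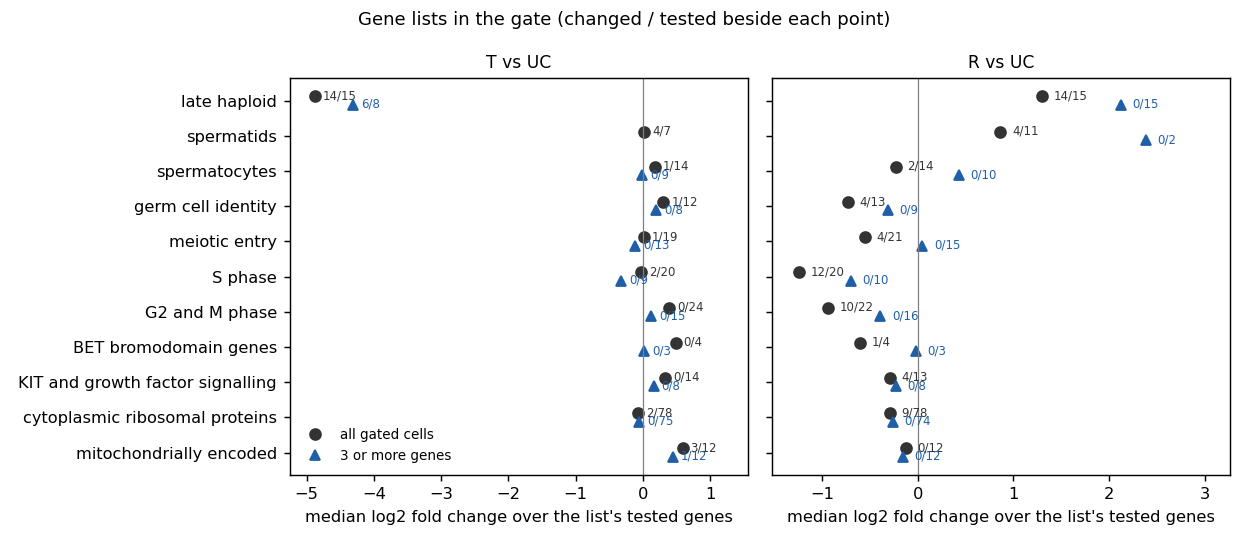
Median log2 fold change over the tested genes of 11 lists in T against UC (left) and R against UC (right), for all gated cells (circles) and cells with 3 or more genes detected (triangles), with the number changed and tested beside each point. In both sets of cells the late haploid list lies far to the left in T and to the right in R, and the other lists lie within about 1 log2 unit of 0 in T.

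R was compared with UC to ask what remained 6 wk after withdrawal. This comparison shares its UC libraries with that of T. Of 8071 genes 1488 were higher in R (18.4%) and 1292 lower (16%), 2780 in all (34.4%), with a median of -0.05. Left out in turn, the libraries gave between 1985 and 3912. Most of the listed late haploid genes were higher in R and many S phase and G2 and M phase genes lower, and the share of late haploid cells in the gate moved with both.

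Prm1 was at 61850, 65046 and 61086 CPM in R and 32437, 32712 and 28957 in UC (1.58 ± 0.12, adjusted p = 2.96e-07). Of the 15 late haploid genes 14 rose, with a median of 1.30, and of 11 spermatid genes Sun5, Lyzl6, Tssk1 and Tssk2 rose. The leading higher genes included Prm3, Tnp1, 4930570D08Rik, 1700042G07Rik and Tmsb15a, and among the leading lower genes were Npm1, the chromatin gene Hmgn2, the nucleolin gene Ncl, Rpl27, Rps27a, Magoh, Polr2f and Snrpe.

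Npm1 was at 270, 266 and 231 CPM in R and 794, 911 and 871 in UC (-1.17 ± 0.14, adjusted p = 7.61e-06), and Ncl fell by 1.58 ± 0.20 on the log2 scale (adjusted p = 1.27e-05). Of 20 S phase genes 12 fell and none rose, with a median of -1.24, among them Pcna, Mcm3, Mcm4, Mcm5, Mcm6, Tyms and Rrm2 of the replication machinery. Hells was at 72.7, 71.5 and 49.7 CPM in R and 186, 272 and 279 in UC (-1.39 ± 0.20, adjusted p = 3.04e-05). Of 22 genes of the G2 and M phases 10 fell, with a median of -0.94, among them Mki67 at 40.6, 27.7 and 21.7 against 49.4, 119 and 107 CPM (-1.14 ± 0.29, adjusted p = 0.00358). R lay below UC without overlap in Npm1, Hells and Mki67.

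Crabp1 was at 20.3, 18.2 and 8.28 CPM in R and 72.2, 128 and 98.0 in UC (-2.23 ± 0.31, adjusted p = 2.65e-05). Of 13 germ cell identity genes Elavl2, Phf13, Rhox13 and Esx1 fell (median -0.73), of 4 undifferentiated genes Foxo1, Pou3f1, Itgb1 and Taf4b all fell (median -1.36), and of 21 meiotic entry genes Rec114, Mei4, Mei1 and Ythdc2 fell (median -0.55), a share near the 16% of all genes that were lower. Elavl2 was at 20.3, 10.8 and 14.6 CPM in R and 53.2, 84.3 and 69.7 in UC (-1.62 ± 0.30, adjusted p = 0.000312).

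Further lists went both ways. Bax (-1.74 ± 0.28), Trp53 (-1.22 ± 0.39, adjusted p = 0.0137) and Ccng1 fell and Bcl2l11 (1.21 ± 0.22, adjusted p = 0.000312) and Cdkn1a rose, of 9 cell death genes. Dnmt1, the maintenance methyltransferase (-1.71 ± 0.34, adjusted p = 0.000653), Dnmt3a and Tet3 fell and Mbd2 rose (1.14 ± 0.19), of 6 DNA methylation genes. Of 78 ribosomal protein genes 7 fell and Rpl29 and Rps4x rose, with a median of -0.29. Map2k1, Pik3cb and Grb2 fell and Mapk3 rose, of 13 signalling genes, the P-TEFb kinase Cdk9 fell (-1.16 ± 0.36, adjusted p = 0.0121) and its inhibitor Hexim2 rose, of 8, and the MYC partner Mga fell, of 4. Of 12 mitochondrially encoded genes 0 passed.

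Some gated cells of R held Leydig cell transcripts. Cyp17a1, an enzyme of androgen synthesis, had 72, 311 and 1269 UMIs (60.8, 210 and 362 CPM) in R and 0 in T, VC-R and UC, with 0, 13 and 2 UMIs in VC-T. Few cells carried them, 0.538% to 5% of the gated cells in the R libraries. Insl3, a peptide hormone of Leydig cells, was at 24.5, 324 and 370 CPM in R and 0 in UC. The 5 Leydig genes tested, Cyp17a1, Insl3, Cyp11a1, Hsd3b6 and Fabp3, all rose, and 8 to 9 of the 9 markers were detected in R libraries against 3 to 7 in VC-T 2 and VC-T 3, 2 to 4 in UC and 1 to 2 in VC-R. The markers summed to 0.0190% to 0.143% of UMIs in R and at most 0.00730% in VC-T and 0.00190% in UC. Leydig cells express Kit, a gene of the rule, and their part in the R values was not tested. Aldh1a1, a retinaldehyde dehydrogenase that Leydig cells also express, was at 11.8, 85.0 and 81.3 CPM in R and 3.80, 6.24 and 3.77 in UC (4.35 ± 0.78, adjusted p = 0.000262). The Sertoli genes Defb19, Aard and Rhox8, 3 of 7, and C1qb and Cd3d also rose.

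R against UC gave 0 of 2851 genes in the cells with 3 or more genes detected (edgeR's quasi-likelihood test). There were 538 at an unadjusted p under 0.05, DESeq2 called 33, and without R 1 there were 782. R 1 differed from R 2 and R 3 in these cells, with Prm1 at 9537, 36998 and 50460 CPM and the late haploid share of UMIs between 3.25% and 16.3%. The smallest adjusted p was 0.261. Of 15 late haploid genes all 15 were positive, with a median of 2.12, and of 10 S phase genes all 10 were negative, with a median of -0.70, but none passed.

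Crabp1 was at 152, 72.8 and 53.9 CPM in R and 245, 394 and 287 in UC (-1.44 ± 0.34, adjusted p = 0.261), without overlap. Dazl was at 630, 360 and 285 CPM (-0.31 ± 0.30, adjusted p = 0.545), Hells at 547, 265 and 247 (-0.45 ± 0.31, adjusted p = 0.394) and Mki67 at 319, 133 and 126 (-0.02 ± 0.38, adjusted p = 0.983). In every one of these genes R 1 was the highest R library. The Leydig transcripts sat in 1 library, with Cyp17a1 at 0, 449 and 2.25 CPM and Insl3 at 0, 556 and 2.25 CPM.

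**Figure D5:**
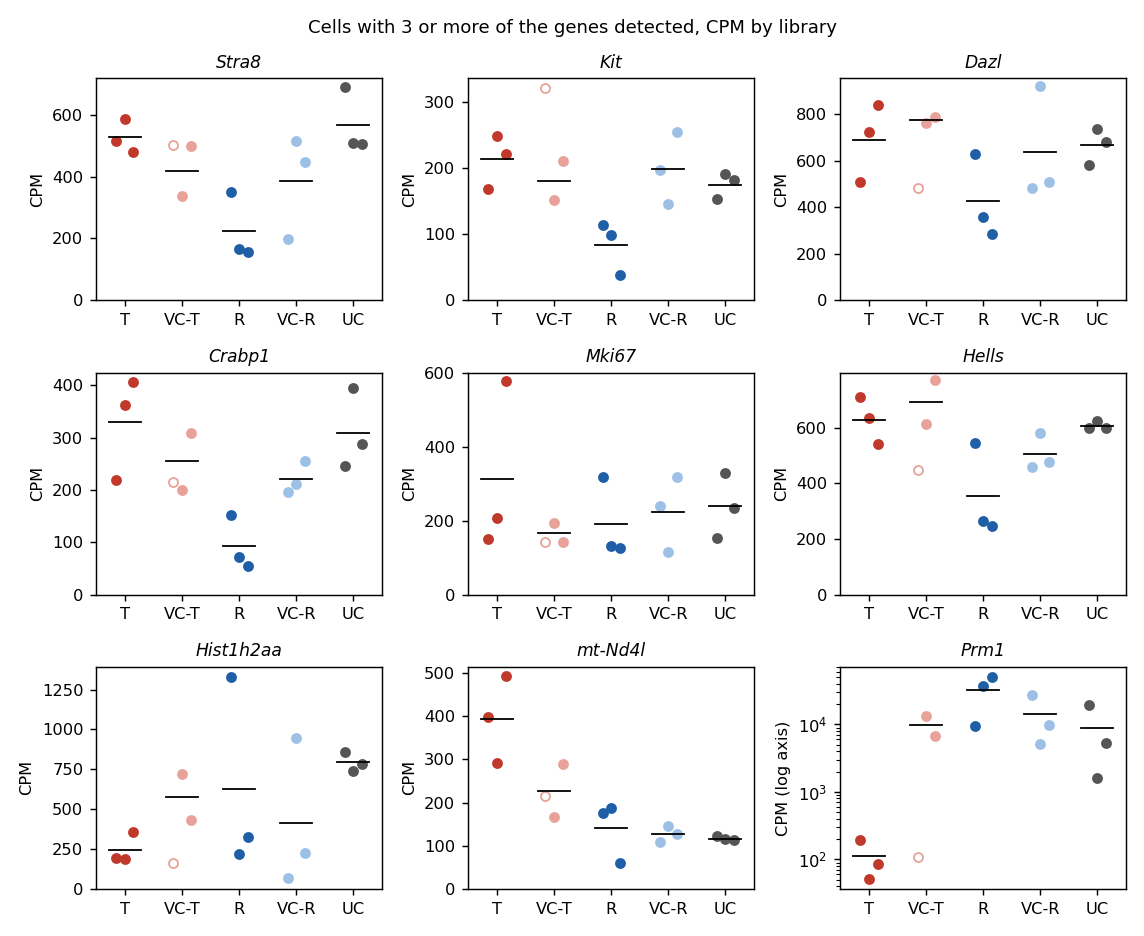
CPM of 9 genes in the cells with 3 or more of the 7 genes detected, with 1 point per library, a line at the group mean and VC-T 1 as an open circle (left out of the tests and of the line). Prm1 is on a log axis: T and VC-T 1 lie below 200 CPM and every other library above 1600 CPM, while Dazl, Mki67 and Hells overlap between T and UC and mt-Nd4l is highest in T.

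T was then compared with vehicle at the same age. The fit of T against VC-T 2 and VC-T 3 tested 8200 genes, of which 498 were higher in T (6.07%) and 989 lower (12.1%), 1487 in all (18.1%). With VC-T 1 in the group 0 of 7214 genes passed (edgeR's quasi-likelihood test), with 845 at an unadjusted p under 0.05, so all calls depended on leaving out a library that may be mislabelled. Late haploid genes fell, 14 of 15, with a median of -4.68. Plk1, Spo11 and Rdh11 rose, and Fen1, Syce2, Rdh10 and Rpl39 fell. Among cells with 3 or more genes detected 69 of 3140 genes changed (2.2%), 13 higher (0.414%) and 56 lower (1.78%), and 12 changed with VC-T 1 in the group. DESeq2 called 51. Without T 1 there were 8, without T 2 45 and without VC-T 3 299. Late haploid genes again fell, 11 of 12, with a median of -3.01, and of 75 ribosomal protein genes Rpl39 fell.

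R against VC-R tested 8080 genes, of which 867 were higher (10.7%) and 1328 lower (16.4%), 2195 in all (27.2%), with a median of -0.14. With RLE in place of TMM scaling the split was 1083 higher and 1079 lower and the median -0.05. The count was fragile, with 6 without R 3, 4 without VC-R 2, 0 without VC-R 3 and 4144 without VC-R 1, whose gated cells had the most late haploid RNA of the VC-R libraries. Late haploid genes rose, 12 of 15 (median 1.17), S phase genes fell, 9 of 18 (median -1.20), as did 10 of 24 genes of the G2 and M phases (median -0.89) and 6 of 12 germ cell identity genes, among them Dazl, Piwil2 and Tdrd9. Crabp1 fell by 2.18 ± 0.41 on the log2 scale (adjusted p = 0.00925), and all 5 Leydig genes rose. None of 3190 genes (0) passed among cells with 3 or more genes (edgeR's quasi-likelihood test), with 238 at an unadjusted p under 0.05, and DESeq2 called 0, with 204. Without R 1 there were 231.

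The JQ1 groups were also compared with each other. R against T tested 9524 genes, of which 2744 were higher in R (28.8%) and 1523 lower (16%), 4267 in all (44.8%). Late haploid genes rose, 15 of 15, with a median of 6.54, and S phase genes fell, 13 of 24, with Fen1 higher. Among cells with 3 or more genes, 410 of 2924 genes changed (14%), 368 higher (12.6%) and 42 lower (1.44%), and without any 1 of the T libraries 0. Without R 1 there were 1100 and without R 2 165. In these cells 13 of 14 late haploid genes rose (median 5.46), Ldhc rose (1.77 ± 0.47, adjusted p = 0.0407) and Bcl2l11 rose (1.79 ± 0.44, adjusted p = 0.0287), while Crabp1 (-1.45 ± 0.33, adjusted p = 0.0228), Cdk9 (-1.44 ± 0.31, adjusted p = 0.0175) and Phf13 fell. Of 11 S phase, 14 G2 and M phase and 13 meiotic entry genes 0 passed.

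No gene passed between the control groups in the fit without pairing. VC-R against UC gave 0 of 5432 genes (edgeR's quasi-likelihood test), with 47 at an unadjusted p under 0.05, and DESeq2 gave 0 with 18. The cells with 3 or more genes gave 0 of 1512, with 17, and DESeq2 0 with 6. Same-numbered libraries of these groups deviated together, and with the replicate number as a block 5 genes passed, 4 higher and 1 lower, and 36 with 3 or more genes detected, 34 higher and 2 lower. The late haploid genes had a median of -0.03 over 15.

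The T against UC difference in the gated cells was then tested against that in the neighbouring gates, with each library holding both. Those gates held late haploid RNA too. Prm1 in the undifferentiated gate is given above. In the leptotene and zygotene gate Prm1 had a UMI in 79.6% of the 722 cells, at up to 12391 CPM by library. The part of late haploid RNA in these differences was not tested. The other gates held 14 to 28 cells in T and 10 to 28 in UC for undifferentiated spermatogonia, and 27 to 52 and 23 to 78 for leptotene and zygotene spermatocytes. Against undifferentiated spermatogonia the difference was unlike in 291 of 4639 genes (6.27%), 143 with a higher and 148 with a lower change in the gated cells. With RLE scaling the split was 58 and 262, and the median over all genes moved from 0.11 to -0.12. Without T 1 there were 96 and without UC 3 99, and in the cells with 3 or more genes 0 of 2497 passed (edgeR's quasi-likelihood test), with 325 at an unadjusted p under 0.05.

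The peroxiredoxin gene Prdx1 averaged 598 CPM in T and 263 in UC in the gated cells, and 471 and 886 in the undifferentiated gate (difference 2.03 ± 0.28, adjusted p = 1.79e-05). The mitochondrial gene mt-Co1 (1.27 ± 0.23) and Hist1h2ap (3.28 ± 0.60) also had a higher change. Hspb9, a testis heat shock gene, averaged 749 CPM in T and 1560 in UC in the gated cells against 1413 and 1130 in the undifferentiated gate (-1.54 ± 0.25). Fabp9, Crisp2, Gstm5 and Dbil5, genes of late germ cells, were among the others with a lower change.

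Against leptotene and zygotene spermatocytes the difference was unlike in 1827 of 6446 genes (28.3%), 911 higher and 916 lower, and without UC 3 in 971. Dazl averaged 475 CPM in T and 284 in UC in the gated cells, but 82.2 and 948 in the leptotene and zygotene gate (difference 3.55 ± 0.31, adjusted p = 4.31e-23). Odf2, an outer dense fibre gene of the sperm tail, averaged 628 and 2364 CPM in the gated cells and 1128 and 905 in the other gate (-2.93 ± 0.24, adjusted p = 2.17e-26). Tex15 (2.81), Mov10l1 (2.75) and Taf7l (3.11), which act in meiotic germ cells, followed Dazl.

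With 3 or more genes detected the difference was unlike that in the leptotene and zygotene gate in 256 of 4117 genes (6.22%), 211 higher and 45 lower. Dazl averaged 689 CPM in T and 666 in UC in these cells and 82.2 and 948 in the other gate (3.37 ± 0.45, adjusted p = 0.00014). Ncl averaged 1840 and 1931 CPM against 110 and 862 (2.81 ± 0.34, adjusted p = 6.58e-05). Taf7l (3.12), Mov10l1 (2.47) and the splicing factor gene Scaf11 (3.43) also had a higher change. The glutathione transferase Gstm5 (-1.92 ± 0.36, adjusted p = 0.0034), Agbl4, Scand1 and Arl2bp had a lower change. For Dazl and Ncl the T and UC averages lay near each other in the gated cells with 3 or more genes and far apart in the leptotene and zygotene gate. Genes of late germ cells differed in that gate as well. Fabp9 averaged 4169 CPM in T and 2537 in UC and Gstm5 3091 and 1795, while Dbil5 went the other way (531 and 951). Whether that gate held cells of the same stages in T and UC was not tested.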

How the data were processed

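The deposited files hold, for each of 15 libraries of testis cells, whole-number UMI counts of 32285 genes in every barcode, not normalized, which the authors obtained with STAR and Cell Ranger on mm10. The labels name Cell Ranger 3.0.0 and the file headers 7.0.0. Whether intronic reads were counted is not given in the sources used here. The authors' SoupX and DoubletFinder steps came after these counts. No column of per-sample values was left unused (0).

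The members, gene lists and tests were chosen with earlier results of these data known. Cells were gated as described, in Python 3.11.15 with numpy 2.4.6, pandas 2.3.3, scipy 1.17.1, scanpy 1.11.5 and matplotlib 3.10.9. Doublets were kept in the main results (2 to 19 of the gated cells per library were among the 5.4% of cells with the highest Scrublet score in their library), and leaving them out was an alternative. UMIs were summed per library with at least 10 gated cells. Low genes were removed with filterByExpr, sums were scaled by TMM and tested with edgeR 4.0.16 (R 4.3.3, limma 3.58.1) by the quasi-likelihood test with Benjamini-Hochberg adjustment over all genes tested, on the libraries of the groups compared without VC-T 1. SEs were derived from the F statistic. DESeq2 1.42.0, the authors' tool, was an alternative. CPM are plain shares of summed UMIs, whereas fold changes are scaled by TMM, so their directions can differ. Ratios between gates had 1 CPM added.

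Genes at equal depth are those expected after thinning to 2000 UMIs, leaving out shallower cells, and lay within 0.264% of random draws. Fits were tested on simulated data. p-values measure the spread between libraries, and shares of cells carry counting error besides.

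Replicate numbers in the labels were checked for pairing by the correlation of deviations from the group means. Only in VC-R against UC was every pair above 0.1 (r = 0.53, 0.38 and 0.21), so the fit with the number as a block is given there.

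Named genes are the genes of the gate, list members changed in T or R against UC (or, in lists without any, up to 4 of smallest adjusted p), up to 10 genes per direction of smallest adjusted p among changed genes whose libraries did not overlap, and the 15 and 8 genes of largest ratio against other kept cells and neighbouring gates, at 50 CPM or more. The tests and alternatives on cells with 3 or more genes detected were added in part after seeing the data. A few list members are not reported here.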

Additional observations from a re-analysis of the deposited data

Results flagged for a closer look

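The T against UC difference in the gated cells was unlike that in neighbouring gates of the same libraries by a test of the difference itself (edgeR's quasi-likelihood test, gate by treatment). It differed from that in undifferentiated spermatogonia in 291 genes and from that in leptotene and zygotene spermatocytes in 1827 genes. The share of cells over 5% late haploid UMIs, 0% of the gated cells in T and 36.6% to 61.4% in UC, moved with both, and its part in these counts was not tested. The part of late haploid RNA in the neighbouring gates was not tested either.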

How the results depend on the processing

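Alternatives used another scaling (RLE), DESeq2, no filter on low counts, no doublets, a stricter gate (at most 1 UMI over 5 Leydig genes and none on 4 spermatid genes), a gate without Uchl1, 3 or more genes detected, only genes at least as high in the gate as in all kept cells, all 14 libraries in 1 fit, and each library left out. Among 57 gene values followed through 861 alternatives, 744 kept their direction and side of the threshold, 117 kept only their direction and 0 reversed. The cause of each change below was not tested unless the alternative left out genes or libraries.

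Under the stricter gate the counts of changed genes were 460 (T vs UC), 849 (R vs UC), 421 (R vs VC-R) and 1408 (R vs T). Without Uchl1 they were 439 (T vs UC), 1190 (R vs UC), 670 (T vs VC-T), 11 (R vs VC-R) and 1901 (R vs T). With 3 or more genes they were 9, 0, 69, 0 and 410 (same order), and 0 and 256 for the differences from undifferentiated spermatogonia and from leptotene and zygotene spermatocytes. Over genes at least as high in the gate they were 558 (T vs UC), 1261 (R vs UC), 530 (T vs VC-T), 1057 (R vs VC-R) and 1629 (R vs T). With no filter the undifferentiated difference gave 154. With VC-T 1, T vs VC-T gave 0 in all gated cells and 12 with 3 or more genes. In the cells with 3 or more genes, DESeq2 gave 33 for R vs UC, and all 14 libraries in 1 fit gave 2 (T vs UC), 2 (T vs VC-T) and 773 (R vs T).

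The replicate block gave 5 genes in VC-R vs UC, 36 there with 3 or more genes and 22 in T vs UC with 3 or more genes, and stayed within 1.5 times the count elsewhere (1239 in T vs UC, 2715 in R vs UC, 1460 in T vs VC-T, 1750 in R vs VC-R and 4160 in R vs T). Outside VC-R vs UC not every pair's correlation was above 0.1, so those samples shared only a number.

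The T share of kept cells turned to -1.22 points after thinning. The R share turned to -0.764 (stricter gate), -0.138 (without Uchl1), -0.267 (3 or more genes) and -0.295 (thinned). The T share of the cells in the early gates was 11.7 points (stricter gate), 12.1 (3 or more genes) and 8.25 (UC alone), none past the threshold. After thinning it was -2.70. That of R was 7.00 (without Uchl1) and 11.6 (UC alone), not past it, and -9.93 (stricter gate), -2.19 (3 or more genes) and -0.604 (thinned). UMIs per cell against UC alone differed by -1364 (T) and 2533 (R), and by -1348 in T with VC-T 1. Genes per cell against UC alone differed by 228 (T) and -149 (R), and in R by -87.7 without Uchl1 and -33.0 with 3 or more genes, none past the threshold. With UC alone, 3 libraries against 3, the smallest exact p is 0.1.

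Leaving out 1 library at a time gave 1147 to 1329 genes (T vs UC), 1985 to 3912 (R vs UC), 1335 to 1733 (T vs VC-T), 0 to 4144 (R vs VC-R), 2972 to 4863 (R vs T) and 0 (VC-R vs UC), and with 3 or more genes 0 to 115, 0 to 782, 8 to 299, 0 to 231, 0 to 1100 and 0. The differences from undifferentiated spermatogonia and from leptotene and zygotene spermatocytes gave 96 to 241 and 971 to 2039. The T share of kept cells ranged from -0.262 to 0.533 points, turning without T 3 (-0.130), UC 1 (-0.262) or UC 2 (-0.0526), and the R share from 0.312 to 0.639. The share of the cells in the early gates ranged from 5.74 to 8.63 (T) and 11.6 to 14.2 (R). UMIs ranged from -1873 to -1191 and 2079 to 3020, and genes from 196 to 218 and -150 to -135. Without VC-T 2 or VC-T 3 the lone VC-T library is assumed to vary like T. With a T or R library left out the exact tests cannot pass 0.05, so lost calls there say nothing of stability. Depth was lowest in the cells with 3 or more genes, with sums of 31396 to 488261 UMIs per library.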
